A study of Mus musculus with 6 samples.

Results

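Sterol synthesis, uptake and efflux are described here through 29 mouse genes, taken by symbol from a table of 27179 genes, in C2C12 myotubes and the myoblasts they form from. They comprise 18 enzymes that build cholesterol, 5 genes that control the pathway through the SREBP transcription factors, and 6 genes that move, store or export sterols. All 29 passed the filter on low counts that left 12800 genes for testing. C2C12 is a line of mouse muscle precursor cells that fuses into multinucleated fibres when serum is withdrawn. The 3 myotube libraries came from cells that had been at 100% confluence for 3 days and then spent 5 days in 2% horse serum with an insulin, transferrin, selenium and ethanolamine supplement. Cells for the 3 myoblast libraries were grown at sub-confluent density in 10% fetal bovine serum. High glucose DMEM and 4 mM glutamine were common to both groups. Serum source and amount, which set the supply of lipoprotein cholesterol, the supplement with its insulin, cell density and differentiation changed together, so their parts cannot be told apart. The labels state a triplicate harvest of a single cell line and name no cultures behind it, so the p-values reflect the spread of these libraries alone, and that spread may be technical.

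Cells make cholesterol from acetyl-CoA by way of mevalonate, farnesyl diphosphate, squalene and lanosterol, and the first of these intermediates also feed the prenylation of proteins, dolichol and ubiquinone. When membranes of the endoplasmic reticulum hold little sterol, SCAP carries SREBP to the Golgi, where proteases free the fragment that activates genes of synthesis and uptake. When sterol is plentiful, INSIG proteins hold SCAP back. Surplus cholesterol is esterified or exported, and its oxysterol derivatives activate LXR, the nuclear receptor that turns on Abca1 and Abcg1. In muscle, cholesterol is a component of the surface membrane and of its T-tubule folds.

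Library totals were 7370169 to 8339589 counts in myotubes and 10076945 to 11723881 counts in myoblasts. Levels are given as CPM, the standard measure that scales each library's counts to the same fixed total, after adjustment of the libraries by TMM, a method that centres the bulk of genes. The labels of the cells were checked against fixed markers. The summed CPM of 8 markers of differentiated myotubes was 17150, 18290 and 17680 in myotube libraries 1, 2 and 3, against 299.5, 320.1 and 320.5 in myoblast libraries 1, 2 and 3. The sum of 5 markers of proliferating cells was 127 to 134 CPM in myotubes and 1776 to 1787 CPM in myoblasts. Markers of other cell types were at or near 0: all 4 hepatocyte markers had 0 counts in both groups, 3 of 5 adipocyte markers had 0 counts in each group, and the 5 haematopoietic markers summed to 3.71 to 4.67 CPM in myotubes and 1.88 to 2.43 CPM in myoblasts. Since RNA was taken from whole cultures, fewer cells of a type and less RNA per cell cannot be told apart.

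The promoters of 4 members, Hmgcs1, Insig1, Insig2 and Abca1, are shown here with short motifs marked. RefSeq's table for GRCm38.p6 held 31 promoter windows for 23 of the 29 members, each running from 250 bases before to 50 bases after the start. The letters searched, on both strands, were TCACNCCAC, a form of the sterol regulatory element bound by SREBP, CCAAT, the letters bound by NF-Y, and GGGCGG, the letters bound by Sp1. Below are the 250 bases before the start, 5′ to 3′ on the strand of the gene, with any of these motifs in capitals in either direction. They lie at chr13:119690101-119690350 on the plus strand for Hmgcs1, chr5:28071162-28071411 on the plus strand for Insig1, chr1:121332590-121332839 on the minus strand for Insig2, where it is 1 of 3 windows, and chr4:53159896-53160145 on the minus strand for Abca1.
Hmgcs1: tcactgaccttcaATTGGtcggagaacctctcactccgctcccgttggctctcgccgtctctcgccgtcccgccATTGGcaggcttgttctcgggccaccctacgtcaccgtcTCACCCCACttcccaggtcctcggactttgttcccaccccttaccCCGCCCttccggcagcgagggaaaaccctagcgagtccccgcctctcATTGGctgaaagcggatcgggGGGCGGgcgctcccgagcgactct
Insig1: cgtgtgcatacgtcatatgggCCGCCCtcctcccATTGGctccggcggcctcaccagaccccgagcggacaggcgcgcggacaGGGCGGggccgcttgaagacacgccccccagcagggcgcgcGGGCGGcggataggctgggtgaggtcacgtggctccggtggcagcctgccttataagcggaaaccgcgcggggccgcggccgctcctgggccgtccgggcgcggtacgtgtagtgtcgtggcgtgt
Insig2: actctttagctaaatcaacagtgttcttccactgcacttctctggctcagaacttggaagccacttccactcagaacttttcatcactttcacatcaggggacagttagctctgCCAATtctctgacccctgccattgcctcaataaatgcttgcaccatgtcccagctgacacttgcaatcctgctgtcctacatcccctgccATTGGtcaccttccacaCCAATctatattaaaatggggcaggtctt
Abca1: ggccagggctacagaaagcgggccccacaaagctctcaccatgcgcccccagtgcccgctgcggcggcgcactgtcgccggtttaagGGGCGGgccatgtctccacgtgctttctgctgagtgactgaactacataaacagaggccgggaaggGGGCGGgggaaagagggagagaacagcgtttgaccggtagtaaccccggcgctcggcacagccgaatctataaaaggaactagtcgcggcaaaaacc

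Among the member promoters, only the window of Hmgcs1, the HMG-CoA synthase gene, held TCACNCCAC, 137 bases before the start, and no motif overlapped it there. That is 1 of 31 windows, or 3.23%, against 1.24% of all 32851 windows of the table and 1.15% of the 12649 windows of genes tested here. CCAAT stood in 21 of 31 windows, or 67.7%, against 37.4% of all windows and 37.6% of those of tested genes. GGGCGG stood in 26 of 31, or 83.9%, against 35.7% of all windows and 62.4% of those of tested genes. The Hmgcs1 window carried 3 copies of CCAAT, and the Insig1 window carried 3 copies of GGGCGG, while the Abca1 window held only GGGCGG. The Insig2 window shown held only CCAAT, and the other 2 windows of that gene held GGGCGG and no CCAAT. These matches describe letters in the windows and say nothing of binding in these cells.

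In day-5 myotubes the sterol genes did not move as a block. The largest differences were rises of the efflux transporter genes Abca1, 15.2-fold, and Abcg1, 2.64-fold, and of the reductase gene Dhcr7, 2.37-fold, while Sqle, the squalene epoxidase gene, was at 50.6% of its myoblast level. Of the 29 members, 10 rose and 10 fell at an adjusted p of 0.05, by the quasi-likelihood test of edgeR, with p-values adjusted by Benjamini-Hochberg over the 12800 genes tested. Of all genes tested, 79.5% passed that threshold, 40.2% higher and 39.2% lower in myotubes. The members' median log2 change was -0.00, against 0.02 over all genes tested. The test against a 2-fold change called 2 members higher, Abca1 and Dhcr7, and 0 lower, against 12.4% and 9.2% of all genes. The 3 myotube and 3 myoblast values did not overlap for 19 of 29 members, against 80.5% of all genes tested.

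**Figure D1:**
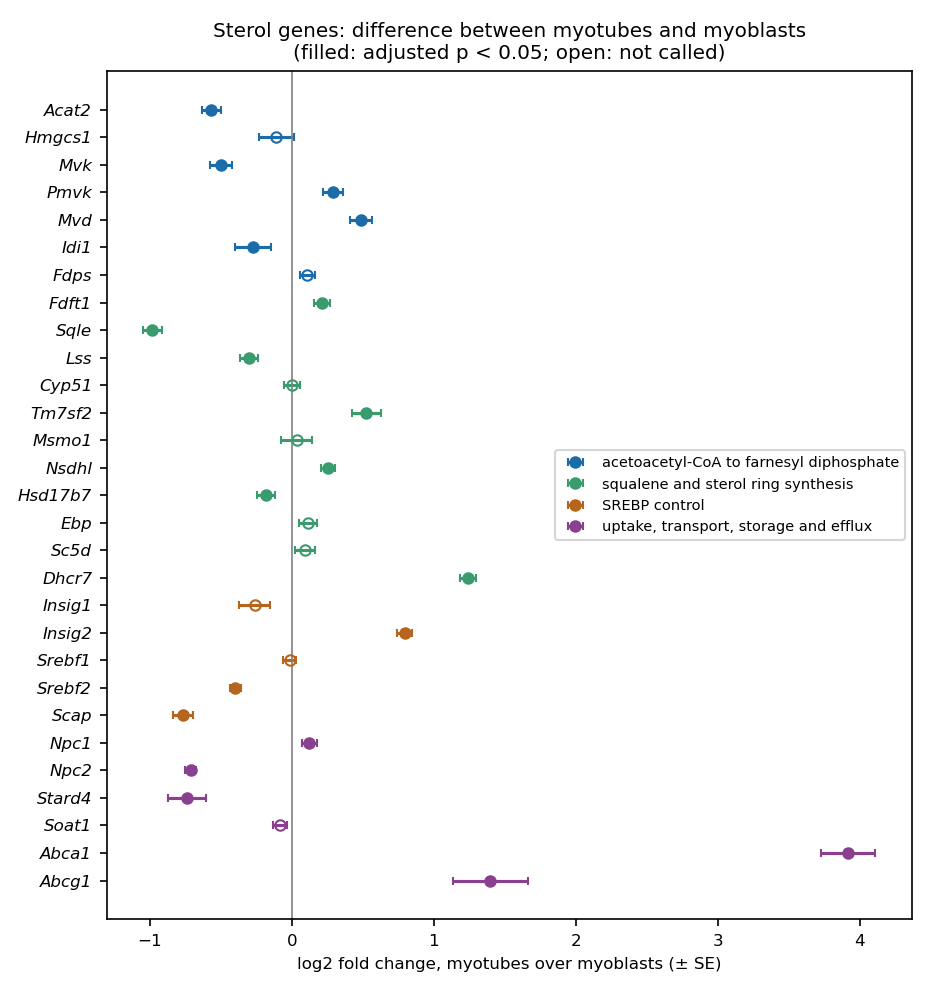
Log2 fold change of each of the 29 sterol genes, myotubes over myoblasts, with SE as bars, grouped by role (horizontal axis: log2 fold change; filled points: adjusted p under 0.05). Abca1 stands at 3.92 and Dhcr7 at 1.24, Sqle is the lowest at -0.98, and both synthesis groups hold points on either side of 0.

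Which side of 0 a small difference takes depends on the scaling. With scaling by total counts, which lowers the median of all genes by 0.15 on the log2 scale, 6 members rose and 14 fell, and over all genes 4269 rose and 5935 fell. Pmvk, Fdft1 and Nsdhl were then no longer called and Npc1 turned to -0.02, while Cyp51, Insig1, Srebf1 and Soat1 were called lower. Another limit is how reads were assigned. In 7 members, Acat2, Hmgcs1, Idi1, Fdps, Fdft1, Tm7sf2 and Scap, at least 10% of the transcript matches another gene or overlaps one, so that reads could be split or shared. Among the other 22 members, 8 rose and 7 fell.

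The 18 enzymes of synthesis rose and fell in equal number, 6 in each direction, with 6 not called. Of all genes tested, 40.2% rose and 39.2% fell, also in near equal number. The counts of each group of members are to be read against those shares, and nothing particular to the pathway is drawn from them. The first enzymes of the mevalonate route were divided. Acat2, the thiolase that makes acetoacetyl-CoA, had 69.1, 63.8 and 52.7 CPM in myotube libraries 1, 2 and 3, against 93.7, 90.4 and 90.0 CPM in myoblast libraries 1, 2 and 3. All myotube values lay below all myoblast values, and the gene fell by 0.57 on the log2 scale (SE 0.07, adjusted p = 3.1e-08). Copies in Acat3 and Tcp1 make up 45.9% of its windows, and Tcp1 itself had a log2 change of -0.20. Hmgcs1, the gene on chromosome 13 at 119690351 to 119708260 that condenses the next acetyl unit, had 447, 380 and 325 CPM in the myotubes, against 405, 414 and 421 CPM in the myoblasts. Myotube library 1 was above every myoblast library and libraries 2 and 3 were below them, so the groups overlapped. Its log2 change of -0.11 (SE 0.12) was not called at an adjusted p of 0.446, but without myotube library 1 it was -0.23 with an adjusted p of 3.89e-05. An antisense transcript covers 12.1% of its exons.

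The 3 enzymes that phosphorylate and decarboxylate mevalonate did not move together. Mvk, the mevalonate kinase gene, had 29.3, 27.2 and 25.1 CPM in myotubes, against 39.7, 38.7 and 36.8 CPM in myoblasts, and fell by 0.50 on the log2 scale (SE 0.08, adjusted p = 1.99e-06). Mvd, the decarboxylase gene 2 steps on, had 56.7, 49.0 and 43.3 CPM in myotubes, against 36.1, 35.5 and 34.0 CPM in myoblasts. Its groups did not overlap either, in the opposite direction, and its log2 change was 0.49 (SE 0.08, adjusted p = 3.95e-06). Pmvk, the phosphomevalonate kinase gene between them, averaged 55.7 ± 6.0 CPM in myotubes and 45.5 ± 1.07 CPM in myoblasts (SD, n = 3 each), with a log2 change of 0.29 (adjusted p = 0.000602). Idi1, which interconverts the 5-carbon isoprene units, was called lower at -0.28, but its adjusted p of 0.0498 was above the threshold in 9 of 13 alternative analyses, and 30.5% of its windows match other genes. Fdps, which joins those units into farnesyl diphosphate, had 113 to 130.4 CPM in myotubes and 106 to 116 CPM in myoblasts and was not called (log2 change 0.11, adjusted p = 0.0661). It was called without myotube library 3 (log2 change 0.16, adjusted p = 0.00895), and 86.4% of its windows match other genes.

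Entry into the sterol branch was also divided between neighbouring enzymes. Fdft1, squalene synthase, had 159, 144 and 129 CPM in myotubes, against 119.6, 128 and 124 CPM in myoblasts. Every myotube library was above every myoblast library, and the log2 change was 0.21 (SE 0.06, adjusted p = 0.00146). The antisense gene Ctsb covers 18.3% of its exons and had a log2 change of 0.00. Sqle, on chromosome 15 at 59315092 to 59331193, encodes squalene epoxidase, a rate-limiting oxygen-dependent step. It had 165, 134 and 130.4 CPM in myotubes, against 283, 281 and 284 CPM in myoblasts. The gap between the groups was far wider than either spread, and Sqle fell by 0.98 on the log2 scale (SE 0.06, adjusted p = 3.79e-10). Lss, lanosterol synthase, had 73.2, 64.2 and 60.4 CPM in myotubes, against 85.3, 82.8 and 74.7 CPM in myoblasts, and fell by 0.30 (adjusted p = 0.000207), with the highest myotube value just under the lowest myoblast value.

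Of the enzymes that trim the lanosterol ring, some were level between the groups and others were not. Cyp51, the lanosterol demethylase gene, had 233, 198 and 189 CPM in myotubes and 206, 208 and 205 CPM in myoblasts. Its group means were 206 ± 23.4 CPM in myotubes and 206 ± 1.55 CPM in myoblasts (SD, n = 3 each), and its adjusted p was 0.988, although it was called lower, at -0.10, without myotube library 1 (adjusted p = 0.0492). Msmo1, the methylsterol oxidase gene, had 163, 144 and 119 CPM in myotubes and 141, 131.5 and 142.5 CPM in myoblasts, and likewise overlapped (log2 change 0.03, adjusted p = 0.789). Without myotube library 3 it was called higher, at 0.15 (adjusted p = 0.0105). Tm7sf2, a sterol reductase, rose, with 20.7, 21.7 and 18.4 CPM in myotubes against 15.2, 13.4 and 13.6 CPM in myoblasts (log2 change 0.53, SE 0.10, adjusted p = 6.48e-05). Its neighbour Vps51 overlaps 12.1% of its exons on the same strand and had a log2 change of -0.22. Nsdhl, the sterol dehydrogenase of the demethylation steps, rose too, with 133, 123 and 115 CPM in myotubes against 103.5, 104 and 103 CPM in myoblasts (log2 change 0.25, adjusted p = 8.28e-05). Hsd17b7, its partner ketoreductase, was lower at -0.18 (adjusted p = 0.011), a call lost without myotube library 2 (adjusted p = 0.095).

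The last steps ended with the largest rise in synthesis. Ebp, the sterol isomerase gene, had 60.6 to 61.5 CPM in myotubes and 54.1 to 60.7 CPM in myoblasts, and was called only without myoblast library 2 (adjusted p = 0.0928 with all 6 libraries and 0.0217 without it). Sc5d, the desaturase gene, had 45.0 to 53.4 CPM in myotubes and 44.5 to 49.4 CPM in myoblasts, and was called only without myotube library 3 (adjusted p = 0.229 with all 6 libraries and 0.0315 without it). Both sets of values overlapped between the groups. Dhcr7, on chromosome 7 at 143823167 to 143848410, encodes the reductase that turns 7-dehydrocholesterol into cholesterol. It had 145, 147 and 136 CPM in myotubes, against 59.5, 65.6 and 55.0 CPM in myoblasts. The lowest myotube library was above the highest myoblast library by more than the spread of either group. The log2 change was 1.24 (SE 0.06, adjusted p = 3.04e-16), and it was above 2-fold with an adjusted p of 0.000182.

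**Figure D2:**
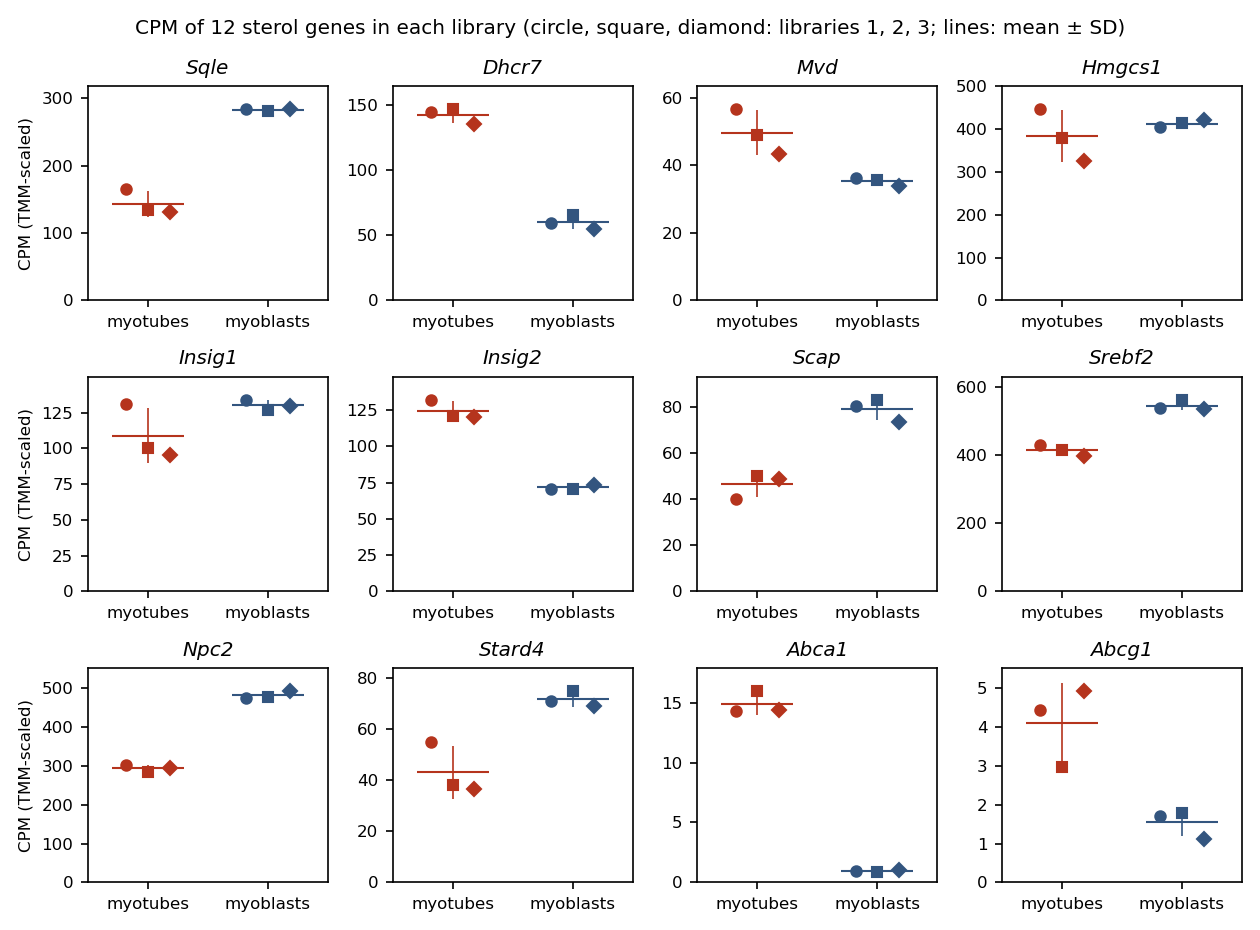
CPM after TMM scaling of 12 sterol genes in each myotube (left) and myoblast (right) library, where symbols mark libraries 1, 2 and 3 and lines give mean and SD; each vertical axis starts at 0. Sqle, Scap, Srebf2, Npc2 and Stard4 are lower in all myotube libraries, Dhcr7, Mvd, Insig2, Abca1 and Abcg1 are higher in all of them, and Hmgcs1 and Insig1 overlap.

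Per kilobase of exon, levels can be set roughly beside each other between genes. The length used joins all annotated exons of a gene and can exceed that of the transcripts the cells make. Rankings between genes by this measure are therefore approximate. In both groups Hmgcs1 was the most abundant synthesis transcript, with 83.5 ± 13.3 CPM per kilobase in myotubes and 89.9 ± 1.76 in myoblasts (SD, n = 3 each). The scarcest were Idi1, with 2.78 ± 0.232 in myotubes and 3.37 ± 0.242 in myoblasts, and Tm7sf2, with 4.60 ± 0.374 in myotubes and 3.19 ± 0.223 in myoblasts. Sqle had 25.9 ± 3.46 CPM per kilobase in myotubes and 51.0 ± 0.316 in myoblasts. Dhcr7 had 24.5 ± 1.03 CPM per kilobase in myotubes and 10.3 ± 0.914 in myoblasts. Thus the mean of Sqle was close to that of Dhcr7 in myotubes, while the Sqle level was the higher of them in myoblasts.

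Among the genes of SREBP control, 1 rose, 2 fell and 2 were not called. Insig2, on chromosome 1 at 121304353 to 121332662, encodes 1 of the 2 proteins that retain SCAP. It had 132, 121 and 120.5 CPM in myotubes, against 70.6, 70.7 and 73.6 CPM in myoblasts. All myotube libraries were higher, with a log2 change of 0.80 (SE 0.05, adjusted p = 3.16e-13). Insig1, its paralogue, is itself a well known SREBP target and lies on chromosome 5 at 28071412 to 28078662. It had 131, 100.4 and 95.4 CPM in myotubes, against 134, 127 and 130.0 CPM in myoblasts. Myotube library 1 lay within the myoblast range and libraries 2 and 3 below it, and the log2 change of -0.26 (SE 0.11) was not called (adjusted p = 0.055). It was called in 6 of 13 alternatives, at -0.41 without myotube library 1 (adjusted p = 1e-08) and at -0.17 without myotube library 3 (adjusted p = 0.0196). Per kilobase, the ratio of Insig2 to Insig1 was 0.897, 1.07 and 1.13 in myotube libraries 1, 2 and 3, against 0.470, 0.496 and 0.504 in myoblast libraries 1, 2 and 3. The ratio did not overlap between the groups.

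The carrier gene Scap and the SREBP gene Srebf2 fell. Scap, the SREBP escort gene, had 40.4, 50.2 and 49.0 CPM in myotubes, against 80.6, 83.2 and 73.9 CPM in myoblasts. Its myotube mean was 58.8% of the myoblast mean, and it fell by 0.77 on the log2 scale (SE 0.07, adjusted p = 2.65e-10). An antisense transcript covers 13.2% of its exons. Srebf2, the SREBP gene with the stronger preference for cholesterol genes, had 428, 415 and 399 CPM in myotubes, against 539, 562 and 535.5 CPM in myoblasts. It fell by 0.40 (SE 0.04, adjusted p = 9.9e-10), again with no overlap. Srebf1, whose products act mainly on fatty acid genes, had 148 to 157 CPM in myotubes and 148 to 160.0 CPM in myoblasts and was not called (log2 change -0.02, adjusted p = 0.748). Per kilobase, the ratio of Srebf2 to Srebf1 was 2.14 ± 0.0313 in myotubes and 2.79 ± 0.0551 in myoblasts (SD, n = 3 each).

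Genes that bring sterol out of lysosomes and move it between membranes were divided between those that fell and those near the threshold. Npc2, the soluble lysosomal cholesterol carrier, had 302, 285.5 and 295 CPM in myotubes, against 475, 477 and 493 CPM in myoblasts. It fell by 0.71 on the log2 scale (SE 0.04, adjusted p = 7.27e-15). Npc1, the membrane protein that takes cholesterol from NPC2, had 95.9, 101 and 92.1 CPM in myotubes and 94.7, 86.0 and 84.3 CPM in myoblasts. Its values overlapped, and a call at 0.12 (adjusted p = 0.0442) was lost when any of myotube library 1, myotube library 2, myoblast library 2 or myoblast library 3 was left out, at adjusted p of 0.0562, 0.204, 0.144 and 0.18. Stard4, a soluble sterol shuttle, had 55.2, 38.0 and 36.5 CPM in myotubes, against 71.1, 75.0 and 69.2 CPM in myoblasts. It fell by 0.74 (SE 0.13, adjusted p = 0.000984), with library 1 nearest to the myoblasts. Soat1, which esterifies cholesterol for storage, had 133 to 149 CPM in myotubes and 144 to 155 CPM in myoblasts and was not called (log2 change -0.08, adjusted p = 0.121). Without myotube library 3 it was called lower, at -0.13 (adjusted p = 0.0196).

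The exporters rose. Abca1, on chromosome 4 at 53030789 to 53159988, encodes the transporter that loads cholesterol and phospholipid onto apolipoproteins. It had 14.3, 16.0 and 14.4 CPM in myotubes, against 0.989, 0.894 and 1.04 CPM in myoblasts, from 332 counts in myotubes and 33 counts in myoblasts. The groups were far apart, with a log2 change of 3.92 (SE 0.19, adjusted p = 6.71e-16), and above 2-fold with an adjusted p of 1.65e-13. Abcg1, which passes cholesterol on to high density lipoprotein, had 4.42, 2.98 and 4.93 CPM in myotubes, against 1.71, 1.79 and 1.13 CPM in myoblasts. It did not overlap either, with a log2 change of 1.40 (SE 0.26, adjusted p = 3.34e-05), and did not pass the 2-fold test (adjusted p = 0.0944) on 92 counts in myotubes and 53 counts in myoblasts. Per kilobase they were the scarcest of the 29 transcripts in both groups. Abca1 had 1.44 ± 0.0913 CPM per kilobase in myotubes and 0.0939 ± 0.00697 in myoblasts, and Abcg1 had 0.563 ± 0.139 in myotubes and 0.211 ± 0.0492 in myoblasts (SD, n = 3 each). Macrophages are rich in both transporters. Of the 5 haematopoietic or macrophage markers, Adgre1 had 0 counts in both groups and Ptprc had 1 count in each. Csf1r had 4 counts in myotubes and 5 counts in myoblasts. Cd68 had 38 counts in myotubes and 64 counts in myoblasts and was not called (log2 change -0.14). Itgam had 51 counts in myotubes and 2 counts in myoblasts and was called higher in myotubes (log2 change 5.00). The part of such cells in the result was not tested.

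Within the myotubes, the 3 libraries were not alike for the synthesis genes. Over genes at large, too, libraries 1 and 3 were the myotube pair furthest apart. Chi-square per degree of freedom was 3.22 for libraries 1 and 3, 1.78 for 1 and 2, and 2.11 for 2 and 3. The part of that wider difference in the order of the sterol genes was not tested. Myotube library 1 was the highest of the 3 for 21 of 29 members, against 33.8% of all genes tested, and library 3 was the lowest for 21 of 29, against 35.1% of all genes. Both held for 17 of 29 members, against 18.9% of all genes. Among the 18 synthesis enzymes, library 1 was highest for 15, library 3 was lowest for 15, and both held for 12. For 0 of them was library 3 the highest or library 1 the lowest. In the myoblasts, library 1 was highest for 8 of these 18 enzymes, against 32.55% of all genes tested. Myoblast library 3 was lowest for 10 of the 18, against 34.48% of all genes. Of the 29 members, myoblast library 1 was highest for 11, or 37.9%, near the share of all genes. Myoblast library 3 was lowest for 16, or 55.2%, above that share. Myoblast library 1 was highest for 6 of the 7 enzymes up to farnesyl diphosphate but for 2 of the 11 enzymes after it. Replicate numbers are names and carry no order of their own, and no test was made of these counts, since the genes were chosen with earlier results known.

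The size of the spread differed between genes. The ratio of library 1 to library 3 in myotubes was 1.51 for Stard4, 1.38 for Hmgcs1, 1.37 for Msmo1 and 1.37 for Insig1. It was 1.31 for Acat2 and for Mvd, 1.27 for Sqle, 1.0 for Ebp and 0.824 for Scap. Pmvk, Tm7sf2 and Dhcr7 were highest in library 2, and Idi1, Hsd17b7 and Ebp were lowest there. The pattern was also seen in 4 of the 5 SREBP control genes but in only 1 of the 6 genes of transport, storage and efflux. Abca1, Scap and Soat1 were lowest in library 1. Some ranks are near ties. Abca1 had 14.3 CPM in library 1 and 14.4 CPM in library 3, and Ebp had 61.5 and 61.4 CPM. The median deviation of the synthesis enzymes from their group mean was 0.11, -0.00 and -0.12 on the log2(CPM + 1) scale in myotube libraries 1, 2 and 3, against 0.02, 0.00 and -0.02 in myoblast libraries 1, 2 and 3. The summed level of the 18 enzymes was 2064, 1848 and 1676 CPM in myotube libraries 1, 2 and 3, against 1927, 1927 and 1913 CPM in myoblast libraries 1, 2 and 3, so that the myoblast sums lay within the myotube range.

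**Figure D3:**
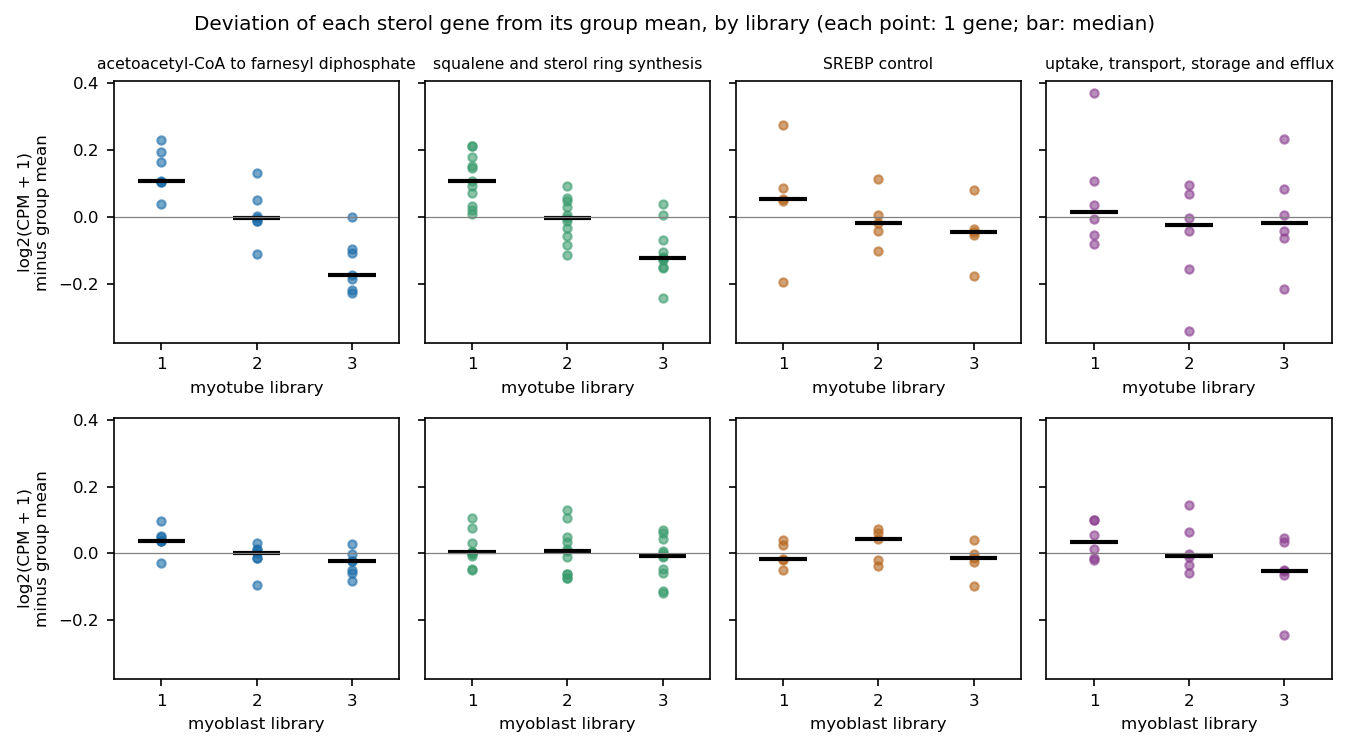
Deviation of each sterol gene from its group mean on the log2(CPM + 1) scale, for myotube libraries (top) and myoblast libraries (bottom), by role; each point is 1 gene and each bar the median. In the synthesis panels the myotube medians are above 0 in library 1 and below 0 in library 3, and the SD over libraries is smaller in myoblasts for every synthesis enzyme except Ebp and Dhcr7.

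The median SD of log2(CPM + 1) over the 29 members was 0.114 in myotubes and 0.0541 in myoblasts, against 0.0942 in myotubes and 0.0688 in myoblasts over all genes tested. The SD was larger in myotubes for 25 of 29 members, or 86.2%, against 63.7% of all genes. Spread was also set beside counting error, which is smaller for genes with more counts. The median coefficient of variation between myotube libraries was 8.4% for members and 6.9% for all genes. Counting alone gives medians of 3.7% for members and 6.4% for all genes, so members pass a multiple of it more easily. The coefficient of variation between myotube libraries was more than 2 times that of counting alone for 14 of 29 members, or 48.3%, against 11.9% of all genes. It was 16.0% for Hmgcs1 where counting gives 1.88%, 17.6% for Insig1 where counting gives 3.53%, and 24.0% for Stard4 where counting gives 5.60%. For Abcg1 it was 24.6% where counting alone gives 18.1%, so that spread is close to counting error. Total counts were 7370169, 7795853 and 8339589 in myotube libraries 1, 2 and 3. Mitochondrially encoded transcripts took 0.184, 0.164 and 0.153% of counts in those libraries, and the sum of the 5 proliferation markers was 134, 129.7 and 127 CPM. The part of these measures in the pattern was not tested.

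Genes around the pathway were counted in 6 further lists, chosen by function with earlier results of these data known. They hold 89 genes, of which 81 were tested, 41 rose and 29 fell, where 40.2% of all genes tested rose and 39.2% fell. The counts of the single lists are to be read against those shares, and nothing particular to a list is drawn from them. Among the 18 SREBP targets of fatty acid synthesis, myotube library 1 was highest for 11, library 3 was lowest for 11, and both held for 9. Among the 4 tested genes for other sterol synthesis enzymes and electron donors, library 1 was highest for 3, library 3 was lowest for 2, and both held for 2. Both held for 4 of 15 isoprenoid genes, 1 of 11 SREBP processing genes, 2 of 22 other uptake and transport genes and 2 of 11 LXR, efflux and oxysterol genes. Between the groups, 8 of the 18 fatty acid genes rose and 8 fell, with a median log2 change of -0.07. Acss2, which makes acetyl-CoA from acetate, had 58.8 ± 8.22 CPM in myotubes and 15.5 ± 0.729 CPM in myoblasts (SD, n = 3 each; log2 change 1.91). Acsl3, which activates long-chain fatty acids, rose by 1.81, while Elovl6, a fatty acid elongase, and Acly, which makes acetyl-CoA from citrate, were at -1.29 and -0.83.

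**Figure D4:**
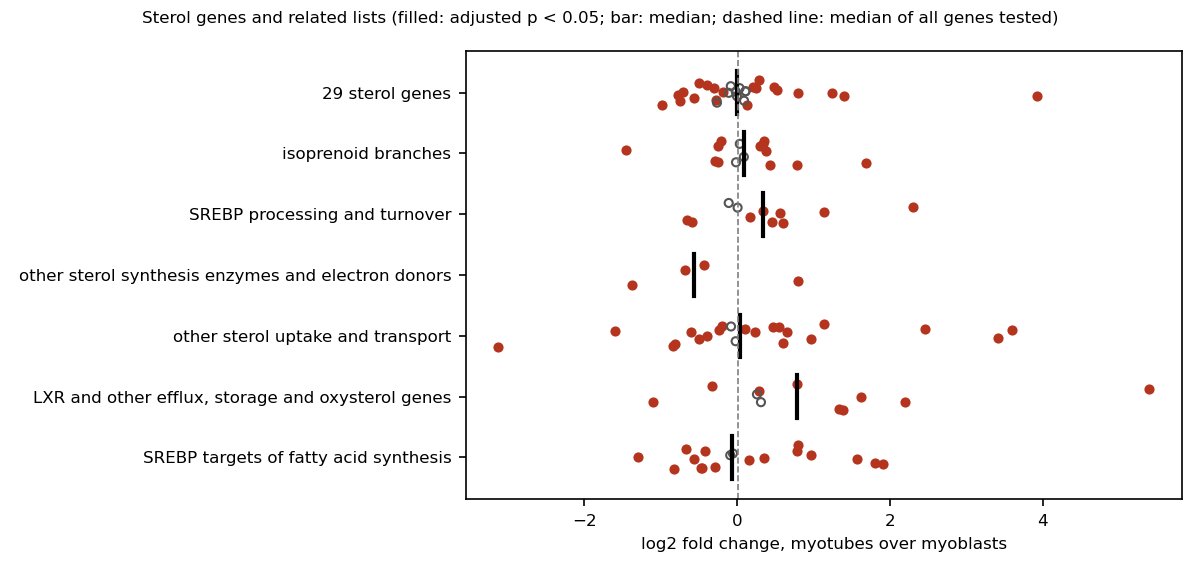
Log2 fold change, myotubes over myoblasts, of the tested genes of the 29-gene group and of 6 related lists; each point is a gene, filled points passed an adjusted p of 0.05, bars mark list medians and the dashed line the median of all genes. The median of the LXR and efflux list is 0.78 and that of the 29 sterol genes is -0.00.

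The isoprenoid branches were mixed, with 7 of 15 genes higher, 5 lower and a median of 0.09. Trit1, which adds an isoprenoid to transfer RNA, had 77.8 ± 3.74 CPM in myotubes and 24.3 ± 1.29 CPM in myoblasts (SD, n = 3 each; log2 change 1.68). Rabggtb, a subunit of the transferase that prenylates Rab proteins, rose by 0.78. Pdss1, which makes the ubiquinone side chain, fell by 1.45, although 17.1% of its windows match neighbouring genes. Zmpste24, the protease that trims prenylated lamin A, fell by 0.29.

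Of 11 genes that process SREBP or turn its regulators over, 7 rose and 2 fell, with a median of 0.34. Fbxw7, the ubiquitin ligase subunit that marks nuclear SREBP for degradation among many other substrates, had 106 ± 2.48 CPM in myotubes and 21.4 ± 0.980 CPM in myoblasts (SD, n = 3 each; log2 change 2.30). Paqr3, a Golgi anchor of SCAP, rose by 1.14, but 51.6% of its windows match its neighbour Bmp2k. Mbtps1, the protease that makes the first cut in SREBP, had 142 ± 6.69 CPM in myotubes and 224.5 ± 2.02 CPM in myoblasts, and fell by 0.66. Faf2, which helps extract ubiquitylated proteins such as INSIG1 from the membrane, fell by 0.59. Among other synthesis enzymes and electron donors, 1 of 4 rose and 3 fell. Cyb5r3, the cytochrome b5 reductase gene, rose by 0.79. Lbr, a sterol reductase of the nuclear envelope with the same activity as Tm7sf2, had 36.3 ± 2.08 CPM in myotubes and 94.0 ± 2.38 CPM in myoblasts (log2 change -1.37), with 11.3% of its windows copied in Dnah14. Por, which gives electrons to Sqle and Cyp51, fell by 0.69.

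Uptake receptors and sterol transfer proteins differed in both directions. In that list 11 of 22 rose, 9 fell and the median was 0.04. Vldlr, a receptor for triglyceride-rich lipoproteins, had 149 ± 8.70 CPM in myotubes and 12.3 ± 1.61 CPM in myoblasts (SD, n = 3 each; log2 change 3.60). Lrp8, a receptor of the same family, had 7.17 ± 1.33 CPM in myotubes and 62.1 ± 4.19 CPM in myoblasts (log2 change -3.12). Gramd1b, which carries cholesterol from the plasma membrane to the endoplasmic reticulum, had 29.2 ± 1.81 CPM in myotubes and 2.74 ± 0.345 CPM in myoblasts (log2 change 3.41). Osbpl10, an oxysterol-binding protein relative, fell by 1.60.

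Of the 11 tested genes of the LXR, efflux, storage and oxysterol list, 7 rose and 2 fell, and the median log2 change was 0.78. Cyp27a1, which makes an oxysterol from cholesterol, had 95 counts in myotubes and 3 counts in myoblasts, a ratio of 48.3 with an exact binomial 95% interval of 16.0 to 238 that covers counting error only. Smpdl3a, a phosphodiesterase and LXR target of human macrophages, had 9.05 ± 0.224 CPM in myotubes and 1.97 ± 0.0924 CPM in myoblasts (SD, n = 3 each; log2 change 2.19). Abca7, a relative of Abca1, went the other way with 63.5 ± 2.97 CPM in myotubes and 136 ± 2.41 CPM in myoblasts (log2 change -1.10). Nceh1, which releases cholesterol from its esters, fell by 0.32.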

How the data were processed

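Poly(A) RNA from 3 myotube and 3 myoblast samples was sequenced, per the labels' protocols, with a stranded kit after TRIzol extraction. The table that the authors deposited gives whole, unscaled counts by Entrez ID and symbol. The tools, per the submitters' processing notes, were fastp, STAR and featureCounts on mm10; versions, strand setting and handling of multiply matching reads were not given in the sources used here. The levels of overlapping and copied genes are therefore uncertain.

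The table held 27179 genes, 8724 of them at 0 in all libraries, and 25275 had an entry in RefSeq's GRCm38 table, from which coordinates come. All value columns were used. Chi-square per degree of freedom between replicates of a group was 1.35 to 3.22, and no pair was identical. Counts were tested with edgeR 4.0.16 in R 4.3.3 (filterByExpr at min.count 10 and min.total.count 15, TMM, robust quasi-likelihood F test, glmTreat at a log2 threshold of 1, Benjamini-Hochberg at 0.05). The log2 change is myotubes over myoblasts, and SE is its size divided by the square root of F. The fit was first tested on simulated counts with known changes. TMM factors were 0.949 to 0.952 in myotubes and 1.05 to 1.055 in myoblasts. Spread was taken as the SD of log2(CPM + 1). DESeq2 1.42.0 and limma 3.58.1 gave alternatives. Copies were sought as 50-base windows in GENCODE M21 transcripts with Python 3.11.15.

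All 29 members are named, and from each further list the 2 largest rises and 2 largest falls of called genes that average 1 CPM or more over the 6 libraries. The members and lists were chosen with earlier results of these data known. Some genes of the pathway are not reported here.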

Additional observations from a re-analysis of the deposited data

How the results depend on the processing

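Direction and call were kept in all 13 alternatives by 14 of the 29 members and by all 23 genes named from the further lists. With total counts, 6 members rose, against 10 with TMM, and the log2 changes of Fdps (-0.0375), Msmo1 (-0.113), Ebp (-0.0329), Sc5d (-0.0541) and Npc1 (-0.0223) took the other sign, since that scaling lowers all changes. Cyp51 was 0.006 with DESeq2 size factors, a scaling that raises the median of all genes by 0.0069. Msmo1 was -0.013 without a filter. Every member was lower in that setting than in the main fit, as with Hmgcs1 (-0.155 against -0.108) and Dhcr7 (1.20 against 1.24). The cause of that shift was not tested. DESeq2's Wald test called 9 members higher and 8 lower, and limma-voom 10 and 10. Leaving out 1 library at a time gave 9 to 13 members higher and 8 to 13 lower, 5014 to 5163 of all genes higher and 4858 to 4991 lower, and 39 to 40 genes of the further lists higher and 28 to 29 lower. In these runs Cyp51 ranged from -0.0951 to 0.0598, Msmo1 from -0.0778 to 0.149 and Srebf1 from -0.044 to 0.0163. Library 1 was highest for 21 members in both other scalings, and library 3 lowest for 20 with total counts.

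Replicate numbers are not said to mark shared cultures. Over all genes tested, same-numbered libraries did not deviate together (correlations of -0.002, 0.011 and 0). These correlations were not taken over the members alone, so they do not settle the matter for them. With the number as a block, 11 members rose and 10 fell, and Insig1 was called at an adjusted p of 0.000417. Depth limits genes with few counts, such as Abcg1 and Cyp27a1, and changes of small size lie within the reach of scaling.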

Other observations

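Other enzymes that make oxysterols, read after their values were seen, were also higher in myotubes at low levels. Ch25h, the cholesterol hydroxylase gene, averaged 3.17 ± 0.349 CPM in myotubes and 1.03 ± 0.484 CPM in myoblasts (SD, n = 3 each), with a log2 change of 1.62 (SE 0.31, adjusted p = 3.91e-05 by the quasi-likelihood test of edgeR, Benjamini-Hochberg adjusted) on 71 counts in myotubes and 35 counts in myoblasts. Cyp46a1, another cholesterol hydroxylase gene, averaged 4.03 ± 0.172 CPM in myotubes and 1.58 ± 0.0662 CPM in myoblasts, with a log2 change of 1.34 (SE 0.24, adjusted p = 1.42e-05) on 90 counts in myotubes and 54 counts in myoblasts. For both genes the 3 myotube values were above the 3 myoblast values; values did not overlap, in either direction, for 80.5% of all genes tested.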
